A study of Caenorhabditis elegans with 6 samples.

Results

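The genes described here encode transporters and channels that carry anions, sodium or water across membranes in the nematode Caenorhabditis elegans. They were chosen by name: every gene whose only symbol in the platform annotation begins with sulp, best, clh, nhx, abts, kcc, nkcc, snf, ncx or aqp followed by a number. This gave 88 genes of the 25546 rows that carry 1 symbol, in 9 families, each gene with 1 probe set. RefSeq lists 90 such genes; the rows of the table with 1 symbol did not include nkcc-1, whose row lists more than 1 gene ID, or snf-4, and neither was analysed here. Of the 88 genes, 87 are annotated as protein-coding and 1, snf-8, as a pseudogene. Total RNA came from whole hermaphrodites of strain N2, the laboratory wild type, at the fourth larval stage (L4). The perchlorate group (3 arrays) was raised from the first larval stage for 48 hours at 20 °C with 1 mg/mL sodium perchlorate in both the agar and the bacterial food. The control group (3 arrays) is named control in its titles and treatment entries, which were followed here, although its growth notes repeat the perchlorate wording. Strain, stage, time and temperature are given alike for both groups. The comparison asked whether transport genes differ in expression between larvae raised with perchlorate, given as its sodium salt, and control larvae.

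Animals take up and export ions through families of carriers that are shared between worms and vertebrates. The sulp genes encode SLC26-type anion exchangers, the family that in vertebrates carries sulphate, chloride, iodide and bicarbonate. The best genes encode bestrophins, chloride channels that calcium opens in other animals, and the clh genes encode chloride channels and exchangers of the ClC type. Bicarbonate transporters (abts) and potassium-chloride cotransporters (kcc) set internal pH and chloride. Sodium/proton exchangers (nhx), sodium-coupled symporters of neurotransmitters and amino acids (snf) and sodium/calcium exchangers (ncx) use or move sodium. Aquaporins (aqp) pass water and, in some members, glycerol. In C. elegans these genes act mainly in the intestine, the epidermis, the excretory canal, which drains water and salts, and in neurons and glia. Perchlorate itself is best known in vertebrates as an inhibitor of the sodium/iodide symporter of the thyroid, which belongs to none of these families.

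Values are log2 probe set values, and each difference is perchlorate minus control on that scale. Probe sets differ in their response, so levels were not compared between genes. Perchlorate replicate 1 stood apart from the other arrays on the first principal component over all rows, where it scored 47.7 while perchlorate replicates 2 and 3 scored 12.2 and 13.1 and every control scored below 0, so key values are given with and without it. Whether the replicates were grown as separate cultures is not stated, and the p-values then measure only the spread between these samples, which may be technical. Marker genes of tissues, and genes that follow the moulting cycle, were measured on the same arrays. Of 10 moulting-cycle genes, 10 lay below 0, with a median difference of -1.24 (-0.91 without perchlorate replicate 1), and their summed level on the log2 scale was 10.57 to 11.60 on the perchlorate arrays and 12.10 to 12.42 on the control arrays. The medians were -0.50 for 7 body wall muscle markers, -0.45 for 5 pharynx markers, -0.40 for 7 epidermis markers, -0.22 for 9 intestine markers, -0.14 for 11 neuronal markers, -0.03 for 8 germline markers and 0.12 for 5 excretory canal markers. The 5 pharynx markers were split, with 2 above 0 (tnc-2 at 0.53 and ceh-22 at 0.26) and 3 below. Their summed levels overlapped, at 11.07 to 11.26 on the perchlorate arrays and 11.24 to 11.67 on the control arrays. In a sample of whole worms, fewer cells of a type and less RNA per cell cannot be told apart. Whether both groups had reached the same point within L4 was not tested. The part of these marker differences in the results for the transport genes was not tested.

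As a group the transport genes differed little between perchlorate-raised and control larvae, with a median absolute difference of 0.15, beside 0.17 over all tested rows. None of the 88 passed at a limma adjusted p under 0.05, where 0.00764% of all 26192 tested rows did. With so few rows passing, this count does not set the members apart. None differed 2-fold, and 313 of the 26192 rows did. The difference of single genes ran from -0.68 in nhx-5 to 0.85 in nhx-1, both sodium/proton exchangers, and the median over all members was 0.05, beside 0.03 over all tested rows. By sign, 53 members lay above 0 and 35 below (60.2% and 39.8%), beside 55.2% and 44.8% of all rows. The unadjusted limma p was under 0.05 for 12 members (13.6%, beside 16.4% of all rows), 10 of them higher with perchlorate and 2 lower. This is 11.4% of members higher, where 8.46% of all tested rows were, and 2.27% lower, where 7.92% of all rows were. The 3 perchlorate values and the 3 control values did not overlap for 27 members (30.7%, beside 24% of all rows), 16 higher and 11 lower. These were 18.2% and 12.5% of the members, beside 12.8% and 11.2% of all rows, so the share of lower members lay near the background. At a limma adjusted p under 0.2 there were 5 members (5.68%), where 7.22% of all rows passed: nhx-5, best-3, best-16, best-17 and nhx-1. The 95% interval of the difference stayed within a 2-fold change in either direction for 86 members and reached beyond it for best-17 and nhx-1. Of the 12 genes with an unadjusted p under 0.05, 6 also had one without perchlorate replicate 1, where 8 members did. The 10 higher genes became 4 without control replicate 1, and the 2 lower became 1 without perchlorate replicate 1 or without control replicate 2. Shares of all rows at an unadjusted p were not counted with an array left out. Without perchlorate replicate 1 the genes with separate groups were 19 higher and 13 lower (21.6% and 14.8%). Of all rows 17.5% and 15.7% were separate there. The 16 higher and 11 lower genes became 25 and 17 without perchlorate replicate 2, where all rows were not counted. Fewer arrays had to separate in both settings.

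**Figure D1:**
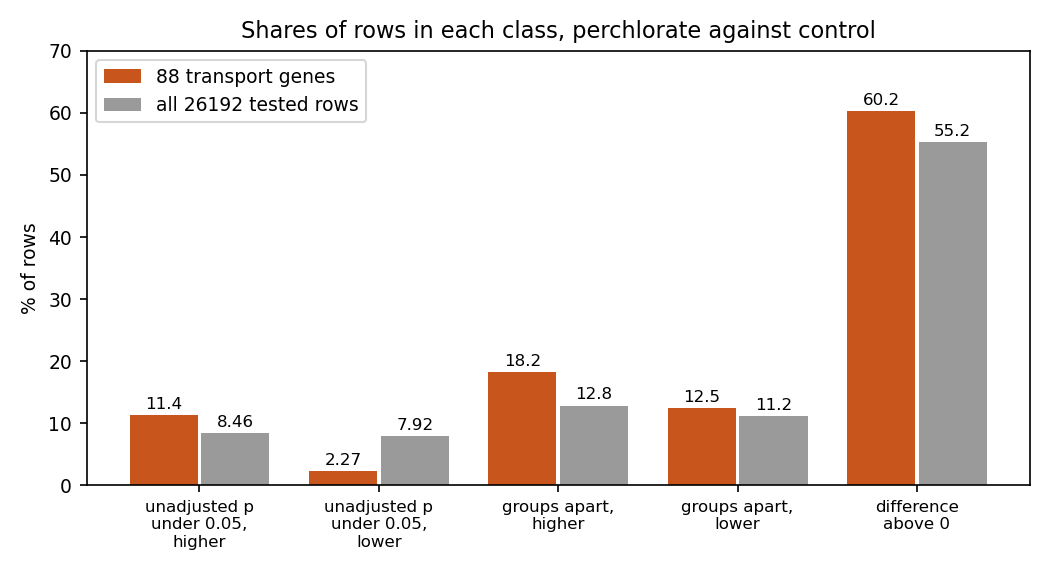
Percentage of the 88 transport genes (orange) and of all 26192 tested rows (grey) in each class of difference, perchlorate against control; groups apart means that the 3 perchlorate and the 3 control values did not overlap. The shares of transport genes were above those of all rows for higher values (11.4% against 8.46%, and 18.2% against 12.8%). At an unadjusted p under 0.05 the lower share was below that of all rows (2.27% against 7.92%). For groups apart, 11 of the 88 genes were lower, near the 11.2% of all rows. The counts are small and depended on single arrays: the 10 higher genes at an unadjusted p became 4 without control replicate 1.

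Family medians lay on both sides of 0. Median differences were 0.18 over the 10 ncx genes, 0.14 over the 8 sulp genes, 0.05 over the 26 best genes, 0.04 over the 6 clh genes, 0.04 over the 12 aqp genes, -0.000533 over the 11 snf genes, -0.03 over the 3 kcc genes, -0.14 over the 8 nhx genes and -0.19 over the 4 abts genes. On leaving out 1 array at a time the medians ran 0.12 to 0.22 for ncx, 0.07 to 0.19 for sulp, 0.05 to 0.11 for best, -0.02 to 0.08 for clh, 0.03 to 0.08 for aqp, -0.08 to 0.01 for snf, -0.10 to 0.06 for kcc, -0.15 to -0.08 for nhx and -0.20 to -0.17 for abts. The clh and snf medians turned sign without perchlorate replicate 1 and the kcc and snf medians without perchlorate replicate 3. The medians moved over 1.5 times for nhx without perchlorate replicate 1, for sulp without perchlorate replicate 3, for ncx without perchlorate replicate 2, and for best without perchlorate replicates 1 or 2 or without control replicate 3, while those of aqp, clh, kcc and snf, near 0, did so without several arrays. The order of the families therefore depended on single arrays. All of these medians were small beside the spread of single members, and no test of the families against each other was made.

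**Figure D2:**
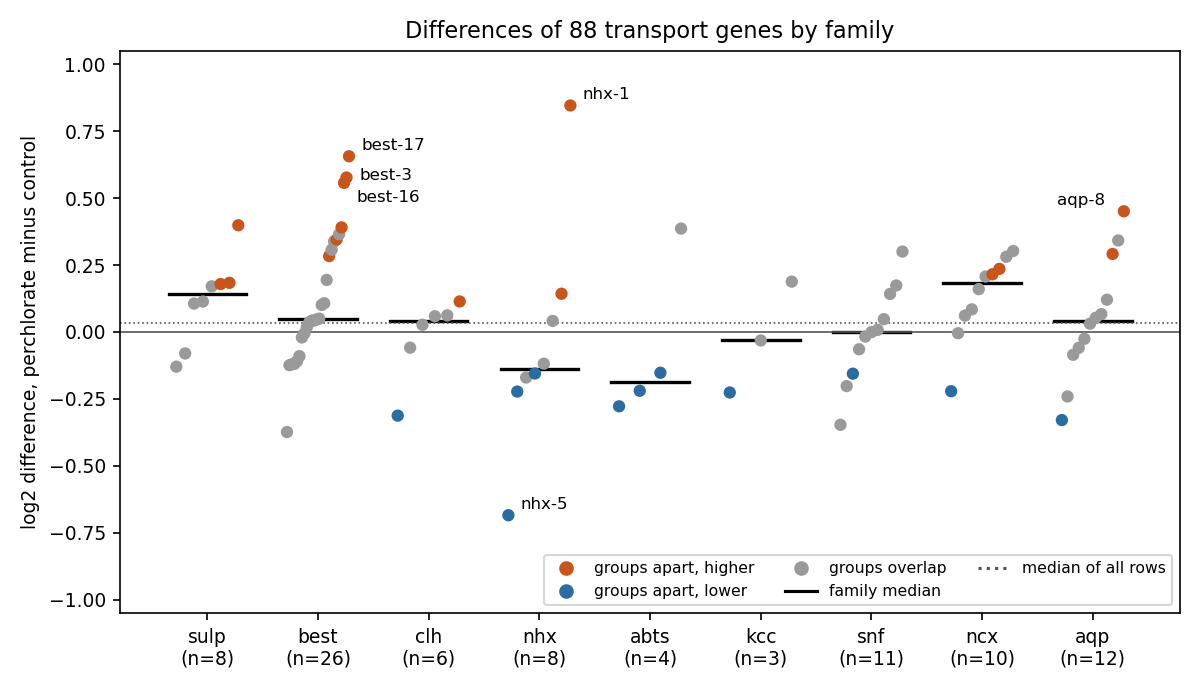
Difference of each of the 88 genes (points) on the log2 scale, perchlorate minus control, by family, with black bars for the family medians and a dotted line for the median of all tested rows (0.03). Most points lie close to 0, with nhx-1 (0.85) at the top, nhx-5 (-0.68) at the bottom and a group of best genes between 0.28 and 0.66.

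Of 26 best genes, the chloride channel family, 6 were higher with perchlorate at an unadjusted p under 0.05 (23.1%, beside 8.46% of all rows), 1 was lower (3.85%, beside 7.92%) and 19 did not pass that threshold, and 0 passed adjusted over all rows. The groups were separate for 6 of the 26 genes on the higher side, where 12.8% of all rows were. On the lower side they were separate for 0, where 11.2% of all rows were. Without perchlorate replicate 1, best-3, best-15, best-16 and best-17 still had an unadjusted limma p under 0.05. The other higher genes, best-14 and best-8, did not (0.0684 and 0.112). best-17 stood at 7.48, 7.12 and 6.91 on the perchlorate arrays, against 6.39, 6.58 and 6.58 on the control arrays. All 3 perchlorate values lay above all 3 control values, and replicate 1 was the highest of them. The log2 difference of best-17 was 0.66 (SE 0.166, limma adjusted p = 0.159), which is 1.58 times the control level, and it was 0.50 without perchlorate replicate 1. best-3 was at 4.82, 4.96 and 4.98 with perchlorate, against 4.27, 4.34 and 4.41 in controls. Both groups were tight and well apart. Its difference was 0.58 (SE 0.109, limma adjusted p = 0.14), 1.49 times the control level, and between 0.54 and 0.62 in every alternative fit. The probe sets of best-3 and best-16 both had signals below the median of all rows, and best-16 was at 4.26, 3.95 and 4.23 with perchlorate, against 3.74, 3.54 and 3.48 in controls. best-16 differed by 0.56 (SE 0.136, limma adjusted p = 0.152), again with no overlap, and by 0.50 without perchlorate replicate 1.

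The next bestrophins had smaller separations. best-14 read 7.61, 7.38 and 7.17 on the perchlorate arrays, against 7.01, 7.04 and 6.93 on the control arrays, a difference of 0.39 (SE 0.139, limma adjusted p = 0.242). best-15 read 6.09, 6.28 and 6.29 on the perchlorate arrays, against 5.77, 5.84 and 6.01 on the control arrays, a difference of 0.35 (SE 0.122, limma adjusted p = 0.239). Within both genes the lowest perchlorate value still exceeded the highest control value. Without perchlorate replicate 1, best-14 differed by 0.28 and best-15 by 0.41. best-8, named here after its values were seen, differed by 0.28 (SE 0.115, limma adjusted p = 0.284) with separate groups as well. Its difference was 0.22 without perchlorate replicate 1. The 1 lower member, best-25, also named after its values were seen, stood at 4.59, 4.93 and 4.64 with perchlorate, against 5.26, 5.15 and 4.88 in controls, and here the groups overlapped. Its difference was -0.37 (SE 0.153, limma adjusted p = 0.289). Neighbouring genes of the family differed from each other: best-26, best-25 and best-10, neighbours on chromosome I, differed by 0.36, -0.37 and 0.05, and best-4 and best-3, neighbours on chromosome II, by 0.05 and 0.58. Whether probe sets of related bestrophins share signal was not tested. best-22, the bestrophin probe set with the highest signal, was 7.98 ± 0.19 with perchlorate and 7.93 ± 0.0688 in controls (SD, n = 3 each), a difference of 0.04 whose 95% interval ran from -0.27 to 0.35. Of the 26 genes 18 lay above 0 and 8 below, where 55.2% of all rows lay above 0. The interval stayed within 0.5 of 0 on the log2 scale for 13 of them.

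Of the 8 sulp genes, the anion exchangers, 6 lay above 0, where 55.2% of all rows did. At an unadjusted p under 0.05, 1 was higher (12.5%, beside 8.46% of all rows). That gene, sulp-5, was at 5.31, 5.47 and 5.42 on the perchlorate arrays, against 4.67, 5.21 and 5.12 on the control arrays. Control replicate 1 was its lowest array by a wide margin, and the difference of 0.40 (SE 0.162, limma adjusted p = 0.288) became 0.23 without it. sulp-1 and sulp-7 also had separate groups but small differences. Thus 3 of the 8 genes were separate on the higher side, where 12.8% of all rows were. sulp-1 was at 4.25, 4.44 and 4.48 with perchlorate, against 4.16, 4.24 and 4.24 in controls, a difference of 0.18 (SE 0.113, limma adjusted p = 0.471). sulp-7 was at 7.71, 7.61 and 7.65 with perchlorate, against 7.42, 7.48 and 7.51 in controls, a difference of 0.18 (SE 0.103, limma adjusted p = 0.419). The remaining 5 ran from -0.13 in sulp-3 to 0.17 in sulp-2, and sulp-2 was at 6.67, 6.09 and 6.11 with perchlorate, against 6.07, 6.15 and 6.15 in controls. Perchlorate replicate 1 alone was high there, and the difference was -0.02 without it. sulp-4, which neighbours sulp-5 on chromosome V, differed by 0.11.

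The clh genes, which encode ClC chloride channels and exchangers, had 0 of 6 members at an unadjusted p under 0.05. Of all rows 16.4% passed, so with 6 genes this count does not set the family apart. clh-2 had the largest difference, with values of 5.15, 5.07 and 5.01 on the perchlorate arrays, against 5.16, 5.41 and 5.60 on the control arrays. Its groups were barely separate, at perchlorate replicate 1 and control replicate 1, and the difference was -0.31 (SE 0.14, limma adjusted p = 0.326), or -0.21 without control replicate 3. clh-3, the channel known for opening in swollen or maturing oocytes, was at 6.52, 6.48 and 6.45 with perchlorate, against 6.42, 6.31 and 6.39 in controls. The perchlorate values were all higher, by 0.11 (SE 0.102, limma adjusted p = 0.621). clh-1, a channel of the epidermis and of sheath glia, was at 9.60, 9.65 and 9.48 with perchlorate, against 9.70, 9.61 and 9.59 in controls. Those groups overlapped, and the interval of the difference of -0.06 ran from -0.31 to 0.20. The other genes, clh-4, clh-5 and clh-6, the last of which acts in lysosomes, differed by 0.06, 0.06 and 0.03.

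Of the 4 abts genes 3 had all perchlorate values below all control values, as did 1 of the 3 kcc genes. Of all rows 11.2% did. An unadjusted p under 0.05 was found for 0 of the 7 genes, beside 16.4% of all rows. abts-1, a bicarbonate-coupled chloride exporter of neurons and muscle, was at 9.13, 9.09 and 9.08 on the perchlorate arrays, against 9.32, 9.32 and 9.31 on the control arrays. Each group spanned under 0.1 on the log2 scale and the groups were fully apart, and the difference was -0.22 (SE 0.0988, limma adjusted p = 0.326), which is 0.859 times the control level. abts-4 was at 7.94, 7.88 and 7.72 with perchlorate, against 8.19, 8.23 and 7.95 in controls, a difference of -0.28 (SE 0.127, limma adjusted p = 0.333). abts-3, outside the naming rule, differed by -0.15 with separate groups. In abts-2 the perchlorate arrays disagreed, at 4.61, 5.51 and 5.31 with perchlorate, against 4.83, 4.72 and 4.73 in controls. Replicate 1 lay below all controls and the others above them, and the difference of 0.39 (SE 0.229, limma adjusted p = 0.444) was 0.65 without that array and 0.20 without perchlorate replicate 2. Among the potassium-chloride cotransporters, kcc-1 stood at 8.76, 8.81 and 8.62 with perchlorate, against 9.01, 9.03 and 8.83 in controls. The groups of kcc-1 were separate, with a difference of -0.23 (SE 0.116, limma adjusted p = 0.381). kcc-2, which keeps chloride low in neurons, differed by -0.03 (SE 0.122, limma adjusted p = 0.919), and kcc-3, which acts in glia of the sensory organs, by 0.19 (SE 0.13, limma adjusted p = 0.511), or 0.12 without perchlorate replicate 3 and 0.11 without control replicate 3. Both of these had overlapping groups.

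The sodium/proton exchangers held the largest difference in each direction. nhx-1 was at 6.86, 6.10 and 6.32 on the perchlorate arrays, against 5.77, 5.36 and 5.62 on the control arrays. The lowest perchlorate value lay above the highest control value, and perchlorate replicate 1 was the highest of all. The difference was 0.85 (SE 0.215, limma adjusted p = 0.159), 1.8 times the control level, with a 95% interval of 0.34 to 1.35, and 0.63 without replicate 1. nhx-5, a relative of the vertebrate exchangers of endosomes, was at 7.23, 7.56 and 7.47 on the perchlorate arrays, against 8.04, 8.14 and 8.13 on the control arrays. Here the 3 controls agreed closely and all 3 perchlorate values lay below them. The difference was -0.68 (SE 0.126, limma adjusted p = 0.14), 0.622 times the control level, with a 95% interval of -0.98 to -0.39, and -0.59 without replicate 1. nhx-5 was the 1 member to pass when limma's prior variance followed a trend and was fitted robustly (adjusted p = 0.0421), and 1.25% of all rows passed in that fit. Both genes lie on the X chromosome.

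The other exchangers of the family differed less. nhx-8 was at 7.96, 7.96 and 8.13 with perchlorate, against 8.16, 8.24 and 8.32 in controls, groups apart with a difference of -0.22 (SE 0.112, limma adjusted p = 0.371). nhx-2, the apical exchanger of the intestine, was 8.78 ± 0.146 with perchlorate and 8.74 ± 0.151 in controls (SD, n = 3 each), a difference of 0.04 (SE 0.134, limma adjusted p = 0.903). Of the rest, nhx-3 was higher on all perchlorate arrays (0.14) and nhx-6 lower (-0.16), while nhx-4 (-0.12) and nhx-9 (-0.17) overlapped between groups. pbo-4, a family member under another symbol whose protein releases the protons that trigger a defecation muscle contraction, was at 8.08, 7.96 and 8.45 with perchlorate, against 8.49, 8.53 and 8.74 in controls. All 3 perchlorate values were lower, with a difference of -0.42 (SE 0.158, limma adjusted p = 0.257). The 9 intestine markers, 4 of them lower at an unadjusted p under 0.05, had a summed log2 level of 14.16 to 14.26 on the perchlorate arrays and 14.26 to 14.33 on the control arrays, and their part in the pbo-4 value was not tested.

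**Figure D3:**
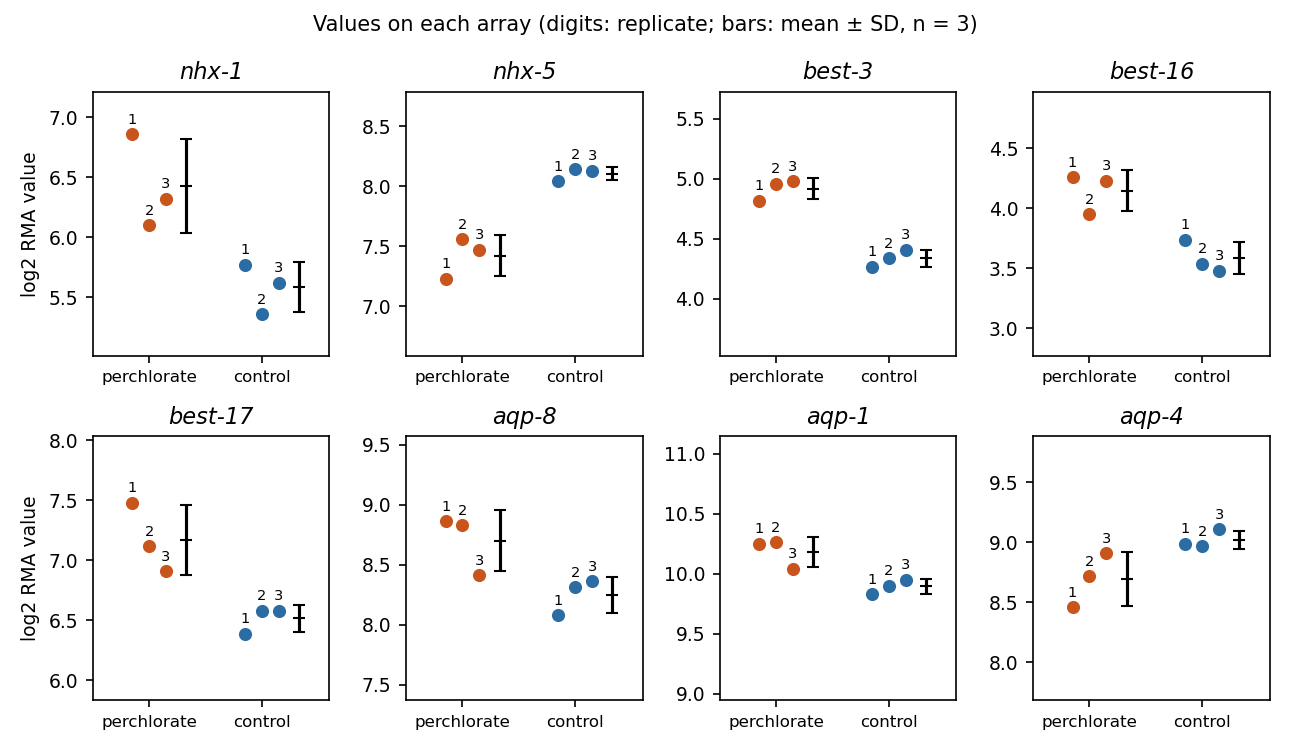
log2 values of 8 genes on every array, perchlorate (orange) left of control (blue), with replicate numbers and the mean ± SD beside each group; all panels have the same span. In each panel the groups do not overlap, by the widest margin in nhx-5 and best-3 and the narrowest in aqp-8, aqp-1 and aqp-4.

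The 11 snf genes, sodium-coupled symporters, had 0 members at an unadjusted p under 0.05 in either direction. Of all rows 8.46% were higher and 7.92% lower, so with 11 genes this count does not set the family apart. snf-10, needed for sperm activation, was at 6.79, 6.53 and 6.87 with perchlorate, against 6.29, 6.59 and 6.39 in controls. The groups overlapped through perchlorate replicate 2 and control replicate 2, and the difference was 0.30 (SE 0.141, limma adjusted p = 0.342). snf-1 was at 7.78, 8.36 and 7.95 with perchlorate, against 8.22, 8.55 and 8.36 in controls, a difference of -0.35 (SE 0.176, limma adjusted p = 0.376) that became -0.22 without perchlorate replicate 1. snf-7 differed by -0.20 (SE 0.137, limma adjusted p = 0.502) with overlapping groups, and by -0.13 without perchlorate replicate 1 and -0.13 without control replicate 2. snf-5, an amino acid carrier of the intestine, was the family's 1 gene with separate groups, at 9.08, 9.22 and 9.09 with perchlorate, against 9.27, 9.36 and 9.22 in controls, and differed by -0.16 (SE 0.108, limma adjusted p = 0.51). The differences of other studied members were smaller: snf-11, which takes up GABA, at -0.000533, snf-3, the betaine carrier, at 0.01, snf-6, a carrier at the neuromuscular junction, at -0.06, and snf-12, needed in the epidermis for antimicrobial peptide expression, at 0.05. The dopamine transporter dat-1 and the serotonin transporter mod-5, of the same protein family, differed by -0.35 (SE 0.197, limma adjusted p = 0.419) and 0.13 (SE 0.18, limma adjusted p = 0.764). Without control replicate 2 dat-1 was at -0.19, and without control replicate 3 at -0.57. mod-5 turned to -0.05 without perchlorate replicate 1.

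The sodium/calcium exchangers had 8 of 10 genes above 0, where 55.2% of all rows were. At an unadjusted p under 0.05 there were 0, where 16.4% of all rows passed. ncx-6 was at 5.97, 6.04 and 6.01 on the perchlorate arrays, against 5.72, 5.79 and 5.81 on the control arrays. Its groups were tight and separate, and the difference was 0.24 (SE 0.101, limma adjusted p = 0.311). ncx-10 was at 4.01, 4.24 and 4.16 with perchlorate, against 3.90, 3.89 and 3.98 in controls, a difference of 0.22 (SE 0.112, limma adjusted p = 0.384), also without overlap. The 1 member whose groups were separate on the lower side was ncx-2, of the plasma membrane type. It was at 8.29, 8.51 and 8.42 with perchlorate, against 8.63, 8.71 and 8.55 in controls, a difference of -0.22 (SE 0.115, limma adjusted p = 0.383). Members of the subfamily that resembles the mitochondrial exchanger of vertebrates, ncx-6 to ncx-10, all lay above 0, from 0.16 in ncx-7 to 0.30 in ncx-9, and 3 of these 5 overlapped between groups. The plasma membrane genes ncx-1, ncx-2 and ncx-3 differed by 0.08, -0.22 and -0.00467. The potassium-dependent ncx-4 and ncx-5 differed by 0.06 and 0.21. Neighbouring pairs, ncx-6 with ncx-7 on chromosome III and ncx-8 with ncx-9 on chromosome V, had similar differences (0.24 and 0.16, and 0.28 and 0.30).

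Of the 12 aquaporins 2 were higher at an unadjusted p under 0.05 (16.7%, beside 8.46% of all rows). At that threshold 0 were lower (beside 7.92% of all rows) and 10 did not pass. aqp-8, a channel of the excretory canal, was at 8.86, 8.83 and 8.41 on the perchlorate arrays, against 8.08, 8.31 and 8.36 on the control arrays. The lowest perchlorate value, in replicate 3, lay just above the highest control value. The difference was 0.45 (SE 0.16, limma adjusted p = 0.242), 1.37 times the control level, and 0.37 without perchlorate replicate 1. aqp-3 was at 4.01, 4.01 and 4.74 with perchlorate, against 4.27, 4.18 and 4.16 in controls, where replicate 3 alone was above the controls, and differed by 0.05. Of the 5 excretory canal markers 3 lay above 0 and 2 below, with a median of 0.12. An unadjusted p under 0.05 was found for 0 of them, beside 16.4% of all rows. Their summed level was 9.85 to 10.06 on the perchlorate arrays and 10.06 to 10.16 on the control arrays. That sum weighs most the marker with the highest signal, exc-9, which differed by -0.22. The part of these markers in the aqp-8 value was not tested.

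aqp-1 and aqp-4, both of the intestine, had separate groups on opposite sides. aqp-1, which passes glycerol and is known for its effect on lifespan under glucose feeding, was at 10.25, 10.26 and 10.04 on the perchlorate arrays, against 9.83, 9.90 and 9.95 on the control arrays. Its groups were separate, with a difference of 0.29 (SE 0.116, limma adjusted p = 0.278), or 0.26 without perchlorate replicate 1. aqp-4 was at 8.46, 8.72 and 8.91 on the perchlorate arrays, against 8.99, 8.97 and 9.11 on the control arrays. Here all perchlorate values were lower, replicate 1 most of all, and the difference of -0.33 (SE 0.142, limma adjusted p = 0.311) was -0.21 without that array. The remaining aquaporins overlapped between groups. Among them aqp-9 differed by 0.34, aqp-2 by -0.24 and aqp-7, whose probe set had the highest signal of the family, by -0.09 (SE 0.133, limma adjusted p = 0.787). aqp-5, aqp-6, aqp-10, aqp-11 and aqp-12 lay between -0.06 and 0.12.

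Across the 88 genes the perchlorate arrays agreed in sign for 44. All 3 lay above the control mean for 25 genes and below it for 19, and the other 44 had mixed signs. Median deviations from the control mean were 0.04, 0.01 and 0.08 on perchlorate arrays 1, 2 and 3. They were -0.05, 0.02 and 0.03 on control arrays 1, 2 and 3. Shifts in opposite directions cancel in such a median. It therefore cannot show whether perchlorate replicate 1, which stood apart over all rows, also did so in these genes. The spread was larger with perchlorate for 53 genes, with a median SD of 0.16, against 0.11 in controls, and over all tested rows the median SDs were 0.193 and 0.147. Of the members 80 had a mean signal above the 25th percentile of all tested rows and 54 above the median. The 12 X-linked members had a median of 0.05 and the 76 autosomal members 0.0451, beside 0.00417 and 0.04 over all X-linked and autosomal rows.

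**Figure D4:**
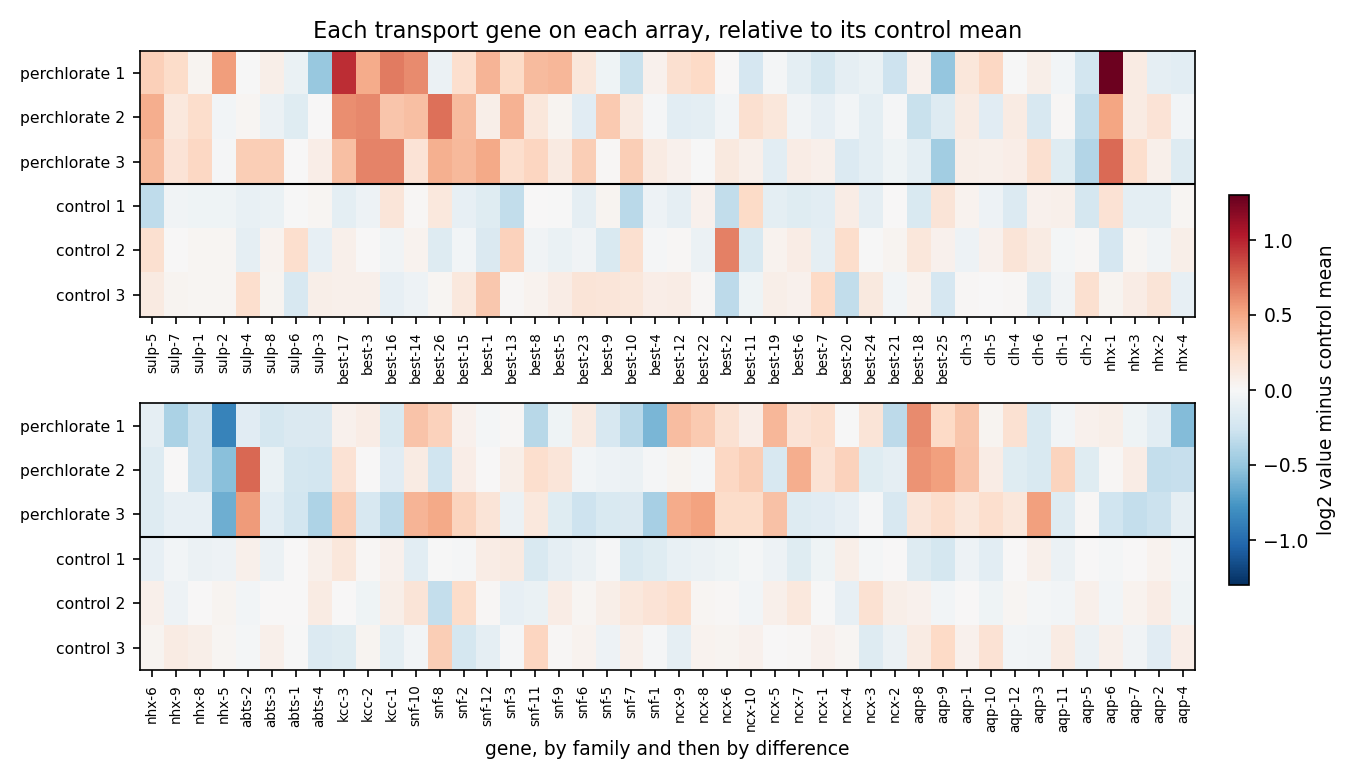
Each of the 88 genes (columns, by family and then by difference) on each array (rows, perchlorate above control), as the log2 value minus the gene's control mean; red is higher and blue lower. The strongest colours are in nhx-1, best-17 and nhx-5, and most columns are pale on all 6 arrays, with mixed signs on the perchlorate arrays for 44 genes.

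Other transport genes were counted from lists compiled by function, and 0 of them passed adjusted over all rows. Counts at an unadjusted limma p under 0.05 were 0 higher and 1 lower of 8 sodium/potassium ATPase subunits, 1 higher and 0 lower of 19 measured vacuolar proton ATPase subunits, 1 higher and 2 lower of 29 DEG/ENaC sodium channel subunits and 1 higher and 1 lower of 16 sodium-coupled carriers of phosphate, dicarboxylates, choline and glutamate. Over all tested rows 8.46% were higher and 7.92% lower. The median differences of these 4 lists were -0.09, -0.04, 0.01 and -0.06. Of the 4 CLIC-like and anoctamin genes, other candidates for chloride channels, 0 had an unadjusted p under 0.05, and the 2 with the smallest p, anoh-1 and anoh-2, differed by 0.28 (SE 0.175, limma adjusted p = 0.474) and 0.19 (SE 0.134, limma adjusted p = 0.52). Without control replicate 1 anoh-1 was at 0.45, and anoh-2 was at 0.30 without control replicate 3. Of the sodium pump, eat-6, the main catalytic subunit, differed by -0.09 and nkb-1, a beta subunit, by -0.31 (SE 0.155, limma adjusted p = 0.362), or -0.47 without perchlorate replicate 2. catp-1, a relative of the catalytic subunit, was at 7.02, 7.01 and 7.01 with perchlorate, against 7.55, 7.58 and 7.27 in controls. The perchlorate values were nearly identical and all below the controls, with a difference of -0.45 (SE 0.123, limma adjusted p = 0.17). vha-18, a subunit of the vacuolar proton ATPase, was at 8.58, 8.46 and 8.27 with perchlorate, against 7.82, 7.80 and 7.97 in controls, groups apart with a difference of 0.57 (SE 0.126, limma adjusted p = 0.148), whereas vha-6, the intestinal subunit, differed by -0.24 (SE 0.11, limma adjusted p = 0.339).

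Among sodium channels del-6 was at 10.70, 10.65 and 10.22 on the perchlorate arrays, against 9.77, 9.73 and 10.02 on the control arrays. Its groups did not overlap, and the difference of 0.69 (SE 0.165, limma adjusted p = 0.152) passed under the same trended, robust variance prior (limma adjusted p = 0.0498). deg-1, a sodium channel gene of neurons, differed by -0.38 (SE 0.125, limma adjusted p = 0.214). Of the carriers, pitr-5, a phosphate transporter gene, differed by -0.56 (SE 0.166, limma adjusted p = 0.188), or -0.65 without perchlorate replicate 1, and glt-7, a glutamate transporter gene, by 0.40 (SE 0.128, limma adjusted p = 0.206). Regulators of cell volume and of the osmotic response were also measured. Of 7 genes 1 was higher (14.3%, beside 8.46% of all rows) and 4 were lower (57.1%, beside 7.92% of all rows) at an unadjusted p under 0.05, with a median of -0.35. The secreted mucin-like gene osm-8, whose loss in mutants switches on the osmotic response, was at 6.19, 6.67 and 6.65 with perchlorate, against 7.68, 7.16 and 7.29 in controls. It differed by -0.87 (SE 0.194, limma adjusted p = 0.148), or -0.71 without perchlorate replicate 1. gpdh-1, which makes glycerol under salt stress, was at 8.25, 8.56 and 8.14 with perchlorate, against 7.79, 7.80 and 7.88 in controls. All perchlorate values were higher, by 0.49 (SE 0.137, limma adjusted p = 0.174). wnk-1, a kinase upstream of chloride cotransporters and channels, differed by -0.35. Epidermis markers, 3 of 7 lower at an unadjusted p under 0.05, had a summed log2 level of 11.05 to 11.21 on the perchlorate arrays and 11.32 to 11.51 on the control arrays, and their part in the osm-8 value was not tested.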

How the data were processed

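RNA of 6 samples of whole L4 hermaphrodites was hybridised to Affymetrix arrays, 3 per group; groups and replicate numbers came from the sample titles. Per the submitters' processing notes, the authors ran RMA (background correction, quantile normalisation and probe summary) in the Affymetrix Expression Console and deposited its output, on a log2 scale. Its version and any genome build are not given in the sources used here. The table was used as it stands. Of 29317 rows, 25546 had 1 gene symbol in the platform annotation, 646 several and 3125 none, and the 26192 with a gene were tested. Biotypes and chromosomes were looked up in RefSeq's genes for assembly WBcel235, which matched all 88 members.

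The comparison, perchlorate minus control, was fitted with limma 3.58.1 in R 4.3.3. Settings were lmFit and eBayes without trend, two-sided, with Benjamini-Hochberg adjustment over all 26192 rows and a threshold of 0.05. The fit was also run on simulated rows with independent normal noise and no outlying array. That run does not cover an array such as perchlorate replicate 1. The number of arrays limits the precision. Families were described by counts and medians, with no set test. The members and lists were chosen with earlier results of these data known. The naming rule took, in each family, the 3 genes with the smallest p and the one with the highest mean, the 12 largest differences without overlap, the 2 smallest p in each further list, and 3 family members under other symbols. Genes outside the rule whose values are given were chosen after their values were seen. Alternatives were a replicate block, each array left out, renewed quantile normalisation, median centring, 2 filters on dim rows, all rows, a trended and robust prior, and array weights.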

Additional observations from a re-analysis of the deposited data

How the results depend on the processing

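No member passed at a limma adjusted p under 0.05 in any fit but one: the trended and robust prior passed 1 (nhx-5). The 10 higher genes at an unadjusted limma p under 0.05 were 4 to 9 on leaving out 1 array, and 7 to 11 under the other alternatives. The 2 lower genes were 1 to 3 on leaving out 1 array, 1 with each array centred on its median, 4 with either filter on dim rows, and 5 with the trended and robust prior. All rows were not counted at an unadjusted p in these alternatives, so whether the member counts moved with them was not tested. The genes with separate groups were 17 to 25 higher and 11 to 17 lower on leaving out 1 array, and 10 higher among the 54 members above the median signal. With an array left out, all rows were counted only without perchlorate replicate 1, where 17.5% were separate on the higher side and 15.7% on the lower. The median over the members lay between 0.02 and 0.07 throughout. Of 50 named genes, 45 kept their direction in every alternative. The 5 exceptions, with their range on leaving out 1 array, were best-22 (-0.0628 to 0.122), mod-5 (-0.0481 to 0.234), nhx-2 (-0.0252 to 0.126), kcc-2 (-0.100 to 0.0569) and aqp-7 (-0.177 to 0.023); best-22 and mod-5 reversed without perchlorate replicate 1, nhx-2 without perchlorate replicate 2 or control replicate 1, where it was -0.02, and the other genes without perchlorate replicate 3. The cause of these changes was not tested. With the replicate number as a block, 8 genes were higher and 2 lower at an unadjusted p, and 0 passed adjusted; the block changed no adjusted call. Deviations of same-numbered arrays from their group means correlated by 0.03, -0.02 and -0.01 over all rows, and only perchlorate replicate 1 correlated best with the control of its own number, so the numbers were not taken to pair the samples. The mean over several rows of a gene was not run, since each member had 1 row. The median SE over the members was 0.135 with 3 arrays per group, and RMA values of dim probe sets understate changes.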
